A study of Mus musculus with 8 samples.

Results

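The genes described here build the transport and maintenance machinery of mitochondria, and they were followed in mouse kidneys with cisplatin-associated acute kidney injury (CIS-AKI). They are the rows of the gene count table that hold 8 counts and whose symbol begins with Slc25a, Tomm, Timm or Ppargc1 or is Mfn1, Mfn2, Opa1, Dnm1l, Tfam, Pink1, Ucp1, Ucp2 or Ucp3. This gave 47 of the 35880 rows with 8 counts, of which 46 are protein-coding genes and 1 is the antisense transcript Tomm6os. Another 39 rows fit the symbols but hold 10 values for 8 named libraries and were not analysed here. They include Mfn1, Opa1, Dnm1l, Tfam and Ppargc1b, along with 21 Slc25a, 7 Tomm and 6 Timm rows. The RNA came from whole kidneys of wild-type male C57/BL6J mice, 4 given saline (control) and 4 given cisplatin, a platinum chemotherapy drug that injures the tubule, both by intraperitoneal injection and both collected at 72 h. All were poly(A) libraries without any genetic change, and the groups differ in the drug alone according to the labels. The labels number the libraries control 1, 2, 3 and 5 and cisplatin 1, 3, 4 and 6.

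Mitochondria import nearly all of their proteins through a channel in the outer membrane, the TOM complex, and sort them onward through the TIM complexes of the inner membrane. The SLC25 carriers, a family to which the uncoupling proteins belong, then exchange nucleotides, phosphate, carboxylates, amino acids and cofactors across the inner membrane. Fusion by mitofusins, removal of damaged organelles by mitophagy and renewal under the coactivator PGC-1alpha keep the network in shape, and the proximal tubule is among the tissues most dependent on it.

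Depth and library differences were as follows. The 8 libraries held 10953338 to 16701599 counts in the rows used, so that 3 counts corresponded to 0.180 to 0.274 CPM, the counts scaled to a common library total. The libraries fell into 2 sets along the second principal component, which held 15.96% of the variance. The first set held control 1, 2 and 3 with cisplatin 1 and 3, and the second held control 5 with cisplatin 4 and 6. What separates the sets is not given in the sources used here. Cisplatin 1 and 3 had 0 to 3 counts of each of the Y-linked genes Kdm5d and Eif2s3y, against 274 to 1333 in the other libraries, although the mice are described as male. Values within the sets and without cisplatin 1 and 3 are therefore given beside some of the results below. Leaving out cisplatin 1 and 3 leaves only libraries of the second set in the cisplatin group, so drug and set are mixed in that fit. All 14 proximal tubule markers were lower after cisplatin, with a median log2 fold change of -4.03 and a summed level of 1481 to 14318 CPM against 62351 to 78658 CPM in controls. Without Kap, the most abundant of them in controls, the sum was 1252 to 3296 CPM after cisplatin and 32647 to 43592 CPM in controls. In bulk tissue, fewer proximal tubule cells and less RNA per cell cannot be told apart, and this holds for every difference below. Of the other tubule markers, 4 of 5 of the thick ascending limb and distal tubule were called lower, while 3 of 3 fibroblast markers and 1 of 3 of the collecting duct (Aqp2) were called higher. Of 6 tested leukocyte rows 3 were called higher and 1 lower. The podocyte markers Nphs1 and Podxl had adjusted p of 0.640 and 0.965, and of the endothelial markers Kdr passed the adjusted p at a log2 fold change of -0.94 while Cdh5 and Tek did not pass. The part of these shifts in the results below was not tested.

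Of the 47 genes, 45 had enough counts for the edgeR quasi-likelihood test, which was run on 9141 genes. Ucp1 and Slc25a54 did not. The call required a log2 fold change of 1 or more in size and a Benjamini-Hochberg adjusted p under 0.05. After cisplatin 3 of the 45 were called up-regulated, whereas 19.2% of all genes tested were. Another 9 were called down-regulated, or 20.0%, against 15.7% of all genes. Either direction together made up 34.9% of all genes. At an adjusted p under 0.05 alone, 3 were higher, against 26.4% of all genes, and 18 were lower, or 40.0%, against 22.6% of all genes. In either direction 49.1% of all genes passed. The other 24 did not pass. The control and cisplatin libraries did not overlap for 3 higher and 18 lower genes, against 23.7% and 22.5% of all genes in those directions and 46.3% in both together. The median log2 fold change was -0.38 over the 45 and 0.08 over all genes tested.

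These counts depend on how the libraries are scaled. When libraries were scaled by their totals instead of by TMM factors, the median log2 fold change of all genes moved up by 0.57, the median of the 45 became 0.19, and 7 were called higher and 3 lower, while 15 and 7 passed the adjusted p. Slc25a20 was among those that then passed as higher (0.84, adjusted p = 0.00253). Higher genes then made up 79.8% of all calls, against 55.0% with TMM. The 3 rises and the falls of Slc25a21, Slc25a10 and Slc25a42 were called under both, and the other 6 calls were not.

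**Figure D1:**
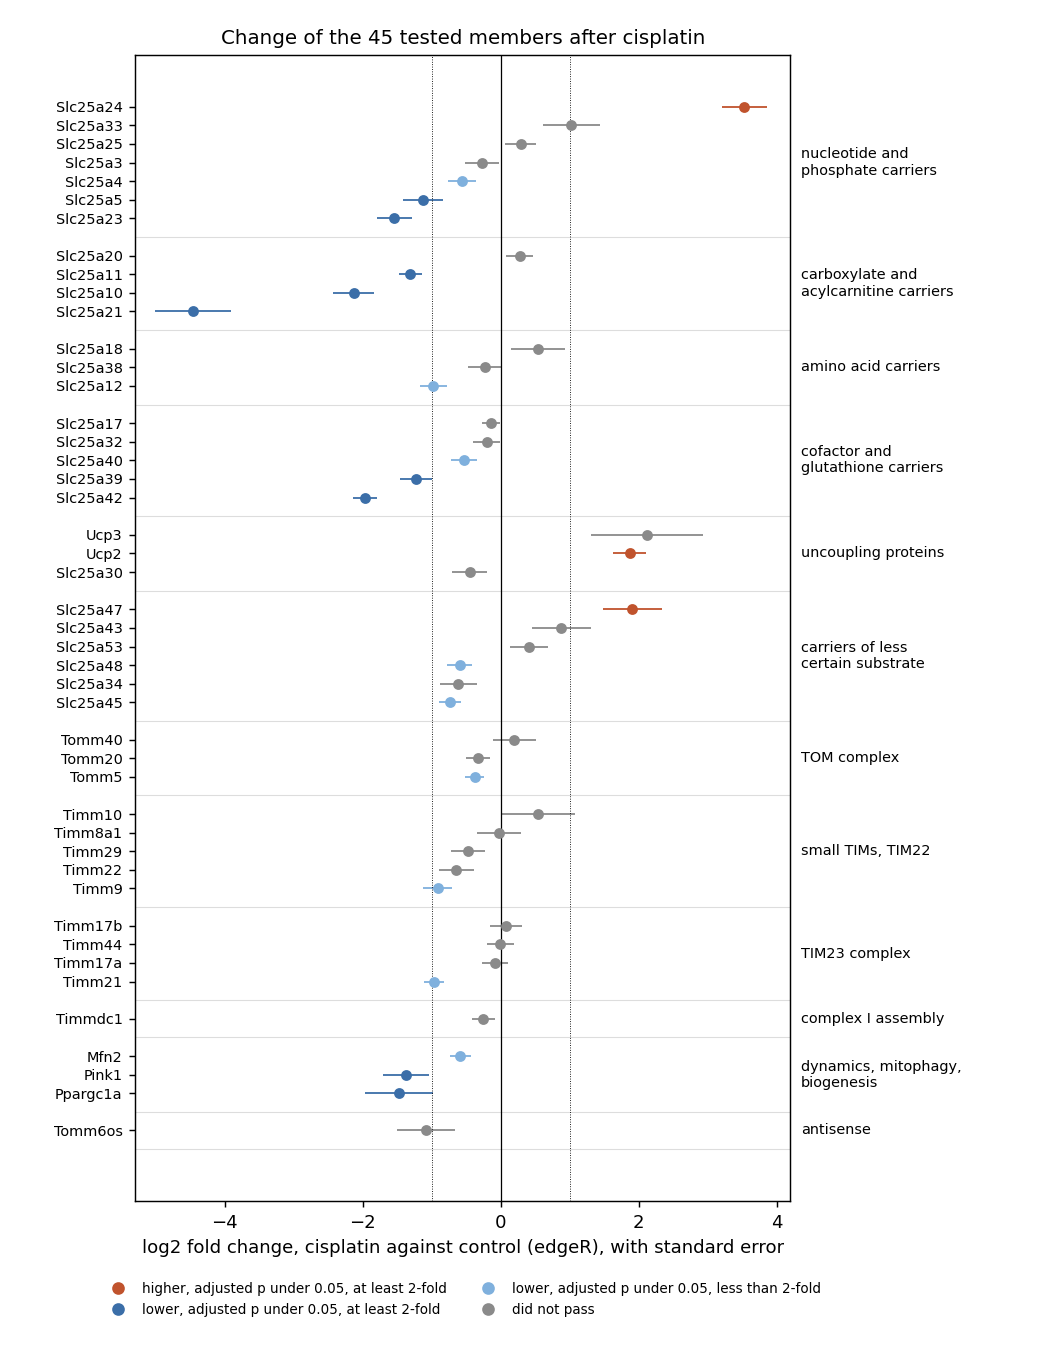
Log2 fold change after cisplatin (x axis, edgeR, bars are standard errors) of each of the 45 tested genes, grouped by role. Slc25a24, Slc25a47 and Ucp2 are the called rises. The 9 called falls lie in the carrier groups and in the group of Ppargc1a, Pink1 and Mfn2. The TOM and TIM proteins' genes lie between -0.97 and 0.54.

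Sequences of 3 of the genes are shown first, since these are the largest rise, the most abundant rise and the largest fall: the 250 bases before the RefSeq start site (GRCm38.p6), 5′ to 3′ on the coding strand. Capitals mark GGGCGG (the GC box) or CCAAT, on either strand. The windows are chr3:109122899-109123148 on the + strand, chr7:100493108-100493357 on the + strand and chr12:57197473-57197722 on the - strand.
Slc25a24: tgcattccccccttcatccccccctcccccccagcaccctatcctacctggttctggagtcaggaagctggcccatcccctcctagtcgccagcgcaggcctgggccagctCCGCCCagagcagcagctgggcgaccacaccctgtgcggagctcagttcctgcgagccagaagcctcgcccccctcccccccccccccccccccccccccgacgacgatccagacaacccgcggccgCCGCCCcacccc
Ucp2: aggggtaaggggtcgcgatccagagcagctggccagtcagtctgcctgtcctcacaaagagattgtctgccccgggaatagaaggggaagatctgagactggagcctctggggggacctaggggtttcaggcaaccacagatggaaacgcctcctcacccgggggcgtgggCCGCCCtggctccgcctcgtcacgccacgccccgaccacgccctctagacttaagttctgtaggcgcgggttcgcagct
Slc25a21: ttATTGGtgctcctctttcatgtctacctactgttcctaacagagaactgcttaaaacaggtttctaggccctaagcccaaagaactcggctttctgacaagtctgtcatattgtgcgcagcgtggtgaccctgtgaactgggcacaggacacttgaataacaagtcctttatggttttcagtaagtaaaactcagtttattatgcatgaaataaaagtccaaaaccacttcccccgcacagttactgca
The Slc25a24 window held 2 GC boxes in a stretch of 72.8% G and C, and the Ucp2 window held 1 in 63.6%. The Slc25a21 window shown held no GC box and 1 CCAAT in 43.2%. Another RefSeq start site of Slc25a21, with the window chr12:57160644-57160893 (not shown), had neither motif in 42.8%. Over windows of 250 bases before to 50 after the start, GGGCGG was found in 33 of the 53 promoters listed for 45 of the 47 genes, and in 35.7% of all 32851 promoters. It was in 8 of the 11 promoters of the genes called lower and in 2 of the 3 of those called higher. CCAAT was in 20 of the 53 and in 37.4% of all. The estrogen-related receptor site TCAAGGTCA was in none of the 53 and in 0.423% of all. The cyclic AMP element TGACGTCA was in 1 (Slc25a25) and in 1.79% of all. The E-box CACGTG was in 6 of the 53 and in 7.15% of all, and the AP-1 site TGACTCA was in 1 and in 5.20% of all. None of the 14 promoters of called genes held any of these last 4 motifs. A match is a run of letters in this window and not a bound site, and a missing match says nothing about a factor.

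The largest fall of the 45 was that of a carboxylate carrier. Of 4 genes in this group, 3 were called lower, against 15.7% of all genes tested, and Slc25a20 was not. Slc25a21 (ENSMUSG00000035472, chr12:56712634-57197472, - strand) encodes the oxodicarboxylate carrier, which brings 2-oxoadipate from lysine and tryptophan breakdown into the matrix. Its level was 34.9, 28.5, 40.6 and 47.4 TMM-normalized CPM in controls 1, 2, 3 and 5. It was 0.591, 0.605, 2.71 and 3.25 CPM in cisplatin 1, 3, 4 and 6. Every cisplatin library lay below every control, and the mean fell 21.2-fold, from 37.9 ± 8.08 to 1.79 ± 1.39 CPM (SD, n = 4 each). On the log2 scale the change was -4.46 with a standard error (SE) of 0.55 and an adjusted p of 0.000159. The proximal tubule markers ranged from -1.82 to -6.40, a range that Slc25a21, Slc25a10 and Slc25a42 reached and the other tested genes did not.

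Slc25a10, the dicarboxylate carrier that exchanges malate or succinate for phosphate, had 735, 649.7, 757 and 897 CPM in the controls and 97.5, 128, 256 and 212 CPM after cisplatin. The 2 lowest values were those of cisplatin 1 and 3. The mean was 4.38-fold lower, with a log2 fold change of -2.13 ± 0.30 (SE) and an adjusted p of 0.000359. Slc25a11, the oxoglutarate carrier of the malate-aspartate shuttle, had 229, 222, 247 and 322 CPM in controls and 114, 103, 104 and 89.7 CPM after cisplatin. The cisplatin libraries were close together, and the log2 fold change was -1.31 ± 0.17 with an adjusted p of 0.000177. Slc25a20, which carries acylcarnitines inward for fatty acid oxidation, did not pass, at 85.0 ± 20.8 CPM in controls and 103 ± 16.3 CPM after cisplatin, with a log2 fold change of 0.27 ± 0.19 and an adjusted p of 0.271. Its confidence interval ran from -0.20 to 0.75.

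Among the nucleotide and phosphate carriers, 1 of 7 was called higher and 2 lower, against 19.2% and 15.7% of all genes tested. Slc25a24 (ENSMUSG00000040322, chr3:109123149-109168457, + strand) encodes a calcium-regulated carrier that exchanges ATP-Mg for phosphate and so sets the adenine nucleotide pool of the matrix. Its level was 11.6, 10.3, 9.48 and 4.48 CPM in the controls and 117, 135, 69.3 and 92.7 CPM after cisplatin. The lowest cisplatin library was above the highest control, and the mean rose 11.6-fold. This was the largest rise of the 45, with a log2 fold change of 3.53 ± 0.33 and an adjusted p of 3.1e-05. Slc25a23, a carrier of the same kind, moved in the opposite direction, with 319, 301, 327 and 271 CPM in controls and 127, 146, 82.7 and 62.5 CPM after cisplatin. Its log2 fold change was -1.54 ± 0.26 with an adjusted p of 0.000921. The remaining carrier of this kind, Slc25a25, did not pass, at 182 ± 59.99 CPM in controls and 222 ± 30.4 CPM after cisplatin. Its log2 fold change was 0.29 ± 0.23 (adjusted p = 0.319), with log2 ratios of 0.03 in the first library set and 0.87 in the second.

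The ADP/ATP carriers exchange cytosolic ADP for ATP made in the matrix. Slc25a5, the form made by most tissues, had the highest level per kilobase of the 47 genes, at 791 CPM per kb in controls and 361 CPM per kb after cisplatin. Its level was 1017, 963, 1063 and 2166 CPM in the controls and 627, 459, 691 and 599 CPM after cisplatin. Control 5 was far above the other controls, and the groups did not overlap. It fell with a log2 fold change of -1.13 ± 0.29 and an adjusted p of 0.00925. Without control 5 it was -0.78 and within the first library set alone -0.96, which passed the adjusted p and not the fold threshold. Processed copies of Slc25a5 exist in the genome, 1 of them named in the table among the rows not used, and how reads shared with them were counted is not stated. Slc25a4, the form of heart and muscle, was 434 ± 109 CPM in controls and 293 ± 36.4 CPM after cisplatin. It passed at a log2 fold change of -0.57 ± 0.20 (adjusted p = 0.0416), but its groups overlapped and with the total library size the sign turned (0.02).

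Slc25a3, the phosphate carrier that feeds ATP synthase, did not pass, at 1334 ± 318 CPM in controls and 1104 ± 288 CPM after cisplatin. Its cisplatin libraries were 899, 814, 1375 and 1327 CPM, against 1214, 1134, 1179.5 and 1808 CPM in the controls. Within each set the cisplatin libraries lay below the controls in their mean, with log2 ratios of -0.46 and -0.42, while over all 8 libraries the log2 fold change was -0.27 ± 0.24 (adjusted p = 0.382). It turned to 0.28 with the total library size and to 0.03 without cisplatin 1 and 3. With the library set as a covariate Slc25a3 passed as lower (-0.44, adjusted p = 0.00766). Slc25a33, a pyrimidine nucleotide carrier, was 11.8 ± 5.44 CPM in controls and 24.1 ± 13.03 CPM after cisplatin, with a log2 fold change of 1.02 ± 0.41 and an adjusted p of 0.0651. Without cisplatin 1 and 3 it was called at 1.53 (adjusted p = 0.00815), while its log2 ratios were 0.66 in the first library set and 0.76 in the second.

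**Figure D2:**
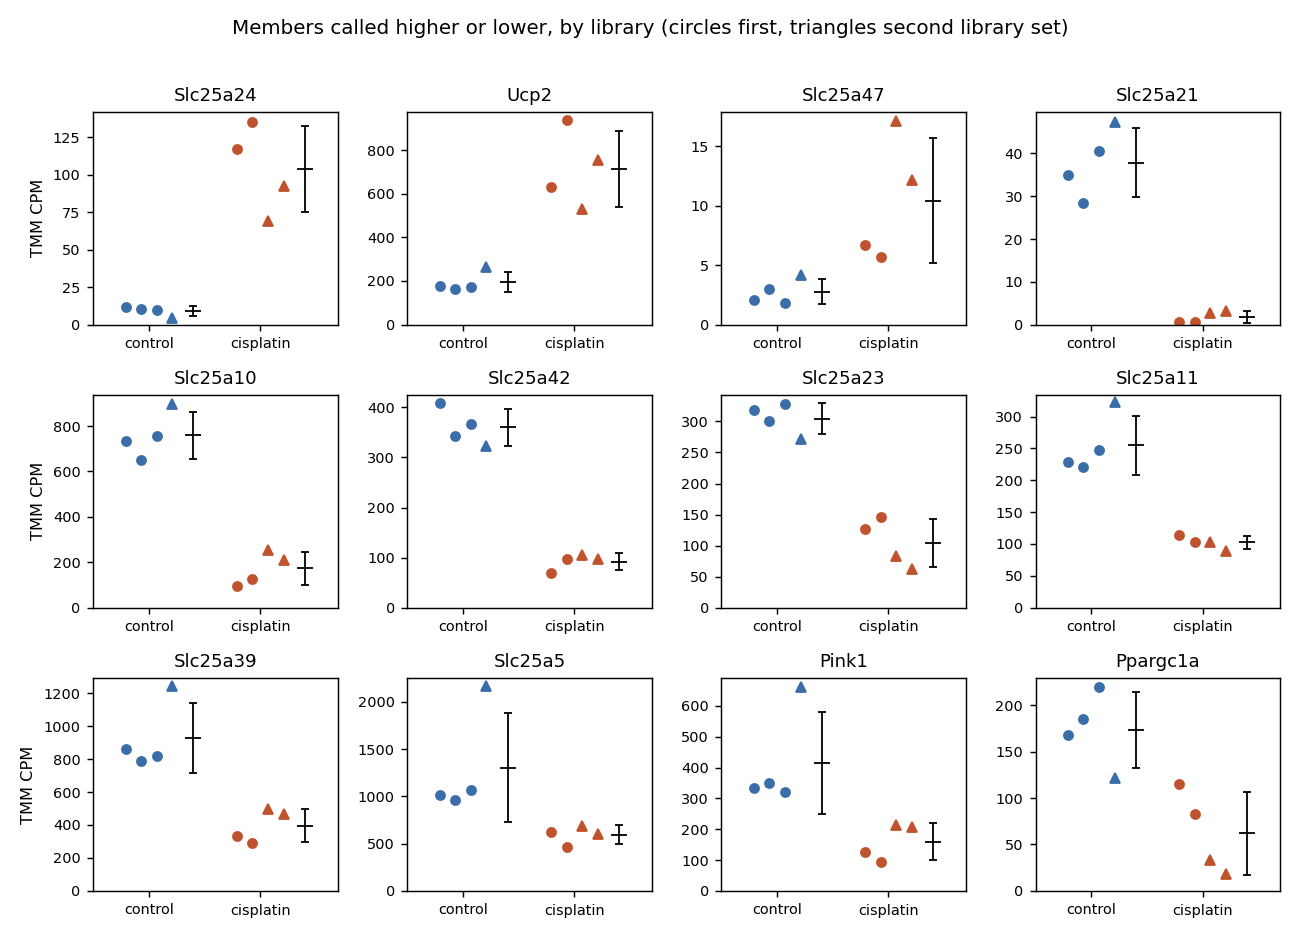
Level of the 12 called genes in each library, in TMM-normalized CPM on linear axes that start at 0, with circles for the first and triangles for the second library set and black bars for the group mean with its SD (n = 4). No control overlaps a cisplatin library in any panel, and control 5 is the high triangle in Slc25a5, Pink1 and Slc25a39.

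Of 5 carriers of cofactors and glutathione, 3 passed as lower and 2 were called, against 22.6% and 15.7% of all genes tested. Slc25a42, which brings coenzyme A into the matrix, had 408, 343, 367 and 322 CPM in the controls and 68.7, 98.2, 105 and 96.98 CPM after cisplatin. The spread inside each group was small beside the gap between them, and the mean was 3.90-fold lower. Of the 9 falls it had the smallest adjusted p, 2.55e-05, at a log2 fold change of -1.96 ± 0.18. Slc25a39, an importer of glutathione into mitochondria, had 859, 788, 821 and 1245 CPM in the controls and 335, 288, 494 and 466 CPM after cisplatin. Its log2 fold change was -1.23 ± 0.24 with an adjusted p of 0.00213. The related Slc25a40 was far scarcer, at 3.06 against 337 CPM per kb in controls. It was 25.7 ± 4.50 CPM in controls and 17.7 ± 2.64 CPM after cisplatin, with a log2 fold change of -0.53 ± 0.19 (adjusted p = 0.0430). Its groups overlapped, and with the total library size the sign turned (0.03).

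The 3 tested SLC25 carriers with the smallest change were Slc25a17, Slc25a32 and Slc25a38. Slc25a17 lies in the peroxisome rather than in mitochondria and carries coenzyme A, FAD and NAD. It had 176, 198, 176 and 212 CPM in controls and 178, 181, 173 and 163 CPM after cisplatin. The log2 fold change of -0.14 had a confidence interval from -0.46 to 0.19, a range that leaves out a change of 2-fold in either direction, and with the total library size the sign turned and the gene passed as higher (0.43, adjusted p = 0.0224). Slc25a32, the folate and FAD carrier, was 42.1 ± 8.42 CPM in controls and 36.6 ± 5.31 CPM after cisplatin (adjusted p = 0.402). Slc25a38, which serves haem synthesis with glycine, was 54.3 ± 16.2 and 46.4 ± 12.2 CPM (adjusted p = 0.479). Both also changed sign with the total library size (0.36 and 0.33).

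Of 3 amino acid carriers only Slc25a12 passed, as lower, against 22.6% of all genes tested. It encodes the aspartate-glutamate carrier aralar of the malate-aspartate shuttle, the partner of Slc25a11 in that cycle. Its level was 156, 155, 163 and 172 CPM in the controls and 109, 91.5, 69.3 and 58.0 CPM after cisplatin. All 4 cisplatin libraries were lower, and the log2 fold change of -0.98 ± 0.20 (adjusted p = 0.00294) was just short of the fold threshold. Without cisplatin 1 and 3 it was called, at -1.33 (adjusted p = 0.000202). The smallest called fall was that of Slc25a5 at -1.13, and Timm21 at -0.97 was the next gene short of the threshold after Slc25a12.

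Of the uncoupling proteins and the related carrier Slc25a30, 3 were tested and only Ucp2 passed, as higher, against 26.4% of all genes tested. Ucp2 (ENSMUSG00000033685, chr7:100493337-100502020, + strand) encodes a carrier of the inner membrane that has been linked to the control of reactive oxygen species and to the export of C4 metabolites. Its level was 179, 163, 174 and 265 CPM in the controls and 629.7, 936, 531 and 754 CPM after cisplatin. The lowest cisplatin library was above the highest control, and the mean rose 3.65-fold, a log2 fold change of 1.87 ± 0.24 with an adjusted p of 0.000179. Per kilobase the gene went from 27.9 to 102 CPM per kb. Ucp2 overlaps Dnajb13 on the opposite strand, and whether counting used strand is not given in the sources used here. The same limit holds for others with an opposite-strand overlap, among them Slc25a21 (Pax9), Slc25a11 (Rnf167), Slc25a23 (Crb3), Slc25a25 (Naif1) and Timm21 (Fbxo15).

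Ucp3, the muscle form and neighbour of Ucp2 on chromosome 7, had few counts. It had 0.974, 0.239, 0.228 and 2.04 CPM in controls and 3.64, 8.74, 1.32 and 1.43 CPM after cisplatin. The high values were those of cisplatin 1 and 3, the libraries without Y-linked counts, and control 5 lay above cisplatin 4 and 6. With a log2 fold change of 2.12 ± 0.81 it missed the threshold (adjusted p = 0.0527). Within the first set alone it was 3.66 and passed (adjusted p = 0.00153), and the log2 ratio in the second set was -0.57.

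Ucp1, the heat-producing protein of brown fat, had 66, 0, 0 and 2 counts in controls 1, 2, 3 and 5 and 9, 6, 19 and 1 counts in cisplatin 1, 3, 4 and 6. It was thus carried mainly by control 1. The fat cell genes Plin1, Adipoq, Cidea and Cfd were highest in the same library, at 4.69, 2.92, 4.16 and 11.3 CPM against at most 0.878, 2.12, 0.910 and 3.51 CPM in any other. The other 4 of the 8 fat cell markers with 8 counts, Cidec, Pck1, Kcnk3 and Elovl3, were not highest in control 1. Cidec was called higher after cisplatin and Pck1, which the proximal tubule also makes, was called lower. Kcnk3 was highest in cisplatin 6, at 5.00 CPM against 2.75 CPM in control 1, and Elovl3 was at 0 in every control. Their part in the Ucp1 counts was not tested. Slc25a30, a kidney carrier related to the uncoupling proteins, was 222 ± 35.7 CPM in controls and 163 ± 60.4 CPM after cisplatin and did not pass (adjusted p = 0.172), with a log2 fold change that turned to 0.13 with the total library size. Without cisplatin 1 and 3 it passed as lower (-0.95, adjusted p = 0.00315).

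The carriers of less certain substrate held 1 called rise among 6 tested, against 19.2% of all genes tested. Slc25a47, best known from liver, had 2.04, 3.03, 1.82 and 4.17 CPM in controls and 6.73, 5.72, 17.1 and 12.1 CPM after cisplatin. It rose with a log2 fold change of 1.91 ± 0.43 (adjusted p = 0.00481). Slc25a45 and Slc25a48 passed as lower, at -0.74 and -0.59, and the other 3 tested did not pass. Slc25a54 had 1 count in each of 2 controls and 0 elsewhere, which was below what could be measured.

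The 14 Tomm and Timm rows hold 12 genes of the import complexes and their chaperones, together with Timmdc1, an assembly factor of complex I, and the antisense Tomm6os. None of the 12 was called by DESeq2 or in the edgeR fit of all 8 libraries with TMM and no covariate. In that edgeR fit 4 had an unadjusted p under 0.05. At an adjusted p under 0.05, 3 were lower (Timm21, Timm9 and Tomm5), against 22.6% of all genes, and the median log2 fold change of the 12 was -0.20. With the library set as a covariate, Timm22 (-0.78, adjusted p = 0.00075), Timm29 (-0.70, adjusted p = 0.00036) and Tomm20 (-0.45, adjusted p = 0.0042) passed as lower too. No import gene passed as higher in that fit. Timm21 and Timm9 lay close to the fold threshold and were called lower in some alternatives. Timm21, a subunit of the TIM23 complex that contacts the TOM complex and the respiratory chain, had 32.1, 29.5, 30.8 and 32.1 CPM in controls and 17.1, 16.7, 14.9 and 14.9 CPM after cisplatin. Both groups were tight, with SDs of 1.22 and 1.18 CPM, and the log2 fold change was -0.97 ± 0.14 (adjusted p = 0.00049). Without cisplatin 1 and 3 it was called at -1.06. Timm9, one of the small chaperones of the intermembrane space that escort carriers to the inner membrane, was 49.9 ± 12.4 CPM in controls and 26.4 ± 5.09 CPM after cisplatin, with a log2 fold change of -0.92 ± 0.21 (adjusted p = 0.00581). With the library set as a covariate it was called at -1.02. Timm9 overlaps Tomm20l on the opposite strand. Tomm5, a small subunit of the TOM complex, was 55.6 ± 5.02 and 42.8 ± 2.46 CPM, with a log2 fold change of -0.38 ± 0.13 (adjusted p = 0.0379) that turned to 0.19 with the total library size.

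The genes of the import channels described next did not pass in the fit of all 8 libraries with TMM and no covariate. Tomm40, the outer membrane pore, had 50.8, 47.2, 53.5 and 114 CPM in the controls and 56.8, 60.5, 99.0 and 88.7 CPM after cisplatin. The high values were those of the second library set in both groups, and the log2 fold change was 0.20 ± 0.31 (adjusted p = 0.629). Tomm20, a receptor of the same complex, had 221 to 258 CPM in controls and 147 to 219 CPM after cisplatin without overlap, but did not pass (log2 fold change -0.33 ± 0.17, adjusted p = 0.144). In the first library set alone it passed at -0.62 (adjusted p = 0.00127), and with the total library size it turned to 0.23. Timm17a and Timm17b, which form the TIM23 channel, were 117 ± 18.8 and 36.2 ± 6.76 CPM in controls and 111 ± 24.3 and 38.2 ± 10.6 CPM after cisplatin, with adjusted p of 0.759 and 0.803. Timm17a passed as higher with the total library size (0.48, adjusted p = 0.0310) and as lower in the first library set alone (-0.32, adjusted p = 0.0311). Timm44, which ties the import motor to that channel, was 106 ± 22.2 and 105 ± 20.1 CPM (adjusted p = 0.989), with a confidence interval from -0.48 to 0.47. It too passed as higher with the total library size (0.56, adjusted p = 0.0196). The antisense Tomm6os was 1.90 ± 0.628 and 0.917 ± 0.509 CPM (adjusted p = 0.0581). It was called lower by DESeq2 (-1.12, adjusted p = 0.0454) and in the first library set alone (-1.46, adjusted p = 0.0098), and its reads cannot be told from those of Tomm6 for certain.

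The 3 genes of fusion, mitophagy and biogenesis all passed as lower, 2 of them called. Ppargc1a (ENSMUSG00000029167, chr5:51454250-51567726, - strand) encodes PGC-1alpha, the coactivator that drives mitochondrial biogenesis. Its level was 168, 185, 219 and 122 CPM in controls 1, 2, 3 and 5 and 115, 82.3, 32.7 and 18.6 CPM in cisplatin 1, 3, 4 and 6. The gap between the groups was narrow, from 115 to 122 CPM, and the lowest control and the lowest cisplatin libraries were all of the second set. The log2 fold change was -1.48 ± 0.49 with an adjusted p of 0.0311. It lost the adjusted p when control 1, 2 or 3 or cisplatin 4 was left out (0.0575 to 0.0754) and with the total library size (0.173). The log2 ratio was -0.95 in the first set and -2.25 in the second, and without cisplatin 1 and 3 the log2 fold change was -2.75 (adjusted p = 0.00037).

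Pink1, the kinase that marks damaged mitochondria for mitophagy, had 332, 349, 319 and 662 CPM in the controls and 125, 93.8, 213 and 208 CPM after cisplatin. Control 5 was far above the others, and without it the log2 fold change was -1.08. Over all libraries it was -1.38 ± 0.33 with an adjusted p of 0.00698, and the log2 ratios were -1.61 and -1.65 in the first and second set. Mfn2, a mitofusin of the outer membrane, had 249, 262, 257 and 327 CPM in controls and 207, 187, 171 and 161 CPM after cisplatin. The groups did not overlap, and the log2 fold change was -0.59 ± 0.15 (adjusted p = 0.0103). With the total library size it was -0.01 (adjusted p = 0.954).

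All 21 genes past the adjusted p had the same sign in both library sets, and so did 18 of the 24 that did not pass. The 21 were chosen on these same 8 libraries. For all of them but Slc25a4 and Slc25a40 the groups did not overlap, which forces the same sign. The shared sign is therefore no separate check of them. Without cisplatin 1 and 3, all 3 rises and 6 of the 9 falls were called again, while Pink1 (-0.97), Slc25a39 (-0.94) and Slc25a5 (-0.998) came out just under the fold threshold. The same fit also called Slc25a12 and Timm21 lower and Slc25a33 and Timm10, a further small chaperone of the intermembrane space, higher (1.21, adjusted p = 0.0381 for Timm10). In the first library set alone, Tomm6os and Ucp3 were added to the calls and Slc25a5 was lost.

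**Figure D3:**
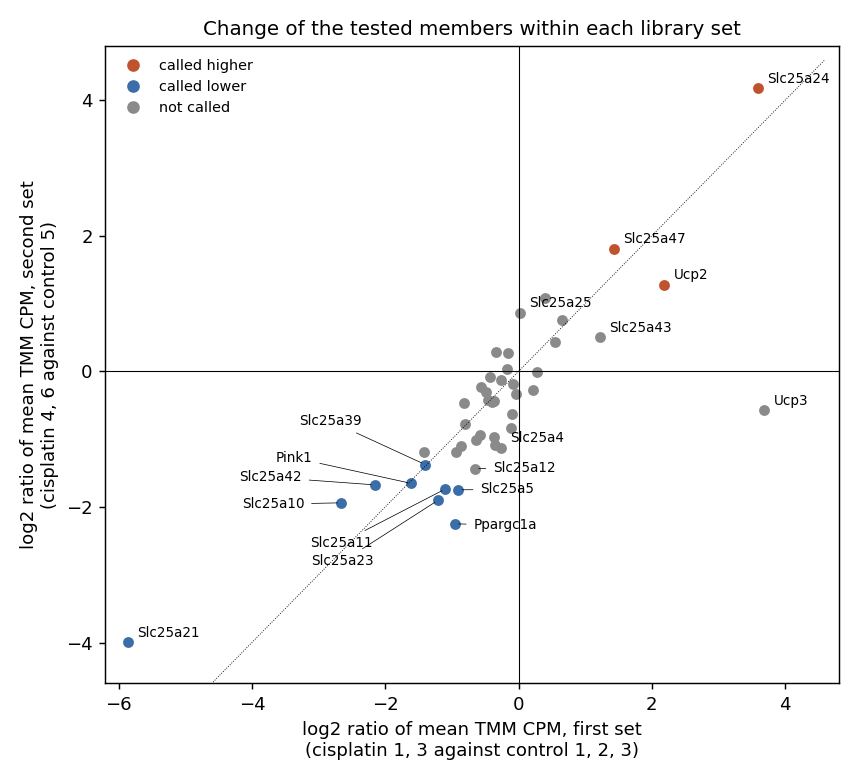
Log2 ratio of mean CPM, cisplatin to control, of the 45 tested genes in the first library set (x axis) and in the second (y axis), with the dotted line where both are equal. All 12 called genes have the same sign in both sets, as they must where the groups do not overlap. Ucp3 is at 3.69 in the first and -0.57 in the second.

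Related carriers were also compared by their count ratio within a library, a measure that does not depend on scaling between libraries. Of 7 pairs tested with a two-sided exact permutation test over 70 regroupings of the 8 libraries, 3 reached the smallest p this design allows, 0.0286, and none passed after adjustment over the 7 pairs (adjusted p = 0.0667 for each of the 3). With only 3 pairs at that smallest p none could pass, however large the difference, so the adjusted p cannot decide on a single pair. The log2 ratio of Slc25a23 to Slc25a24 was 4.78, 4.87, 5.10 and 5.91 in the controls and 0.11, 0.11, 0.25 and -0.57 after cisplatin. The ratio was lower in every cisplatin library than in any control, by -5.19 in the mean. The log2 ratio of Slc25a24 to Slc25a25 differed by 3.24, from -4.37 ± 0.54 to -1.13 ± 0.57 (SD, n = 4). The log2 ratio of Slc25a10 to Slc25a11 was 1.68, 1.55, 1.62 and 1.48 in the controls and -0.23, 0.31, 1.30 and 1.24 after cisplatin, where the low pair was cisplatin 1 and 3. It differed by -0.92. The other 4 pairs overlapped between the groups: Slc25a4 to Slc25a5 differed by 0.52 (exact p = 0.0571, adjusted 0.1), Timm17a to Timm17b by -0.14 (exact p = 0.143, adjusted 0.2), Slc25a39 to Slc25a40 by -0.71 (exact p = 0.2, adjusted 0.233) and Ucp2 to Ucp3 by -0.30 (exact p = 0.6).

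**Figure D4:**
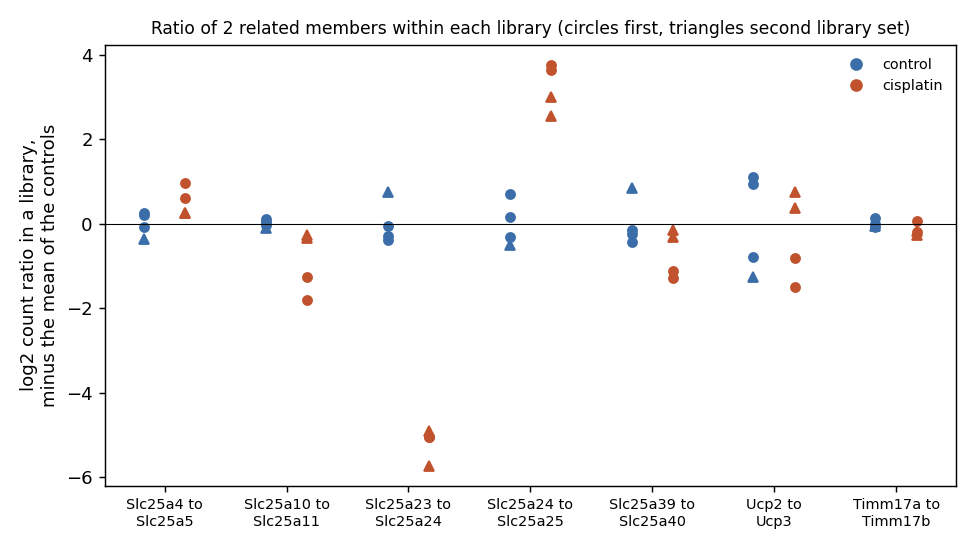
Log2 count ratio of 2 related genes in each library, minus the mean of the 4 controls (y axis), for the 7 pairs (x axis), with blue for control, red for cisplatin, circles for the first and triangles for the second library set. The groups are apart for Slc25a10 to Slc25a11, Slc25a23 to Slc25a24 and Slc25a24 to Slc25a25, and overlap in the other 4 pairs.

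Per kilobase of the length given in the table, the controls had their highest levels in Slc25a5 (791 CPM per kb), Slc25a39 (337), Slc25a3 (240.3), Slc25a10 (219.9), Slc25a4 (184), Pink1 (156) and Slc25a11 (120.3). After cisplatin Slc25a5 (361) was followed by Slc25a3 (199), Slc25a39 (144), Slc25a4 (125) and Ucp2 (102), and Slc25a10 was at 50.2 CPM per kb.

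Other genes of the same processes were read from lists of genes outside the rule. Rows with 8 counts covered 17 of 32 listed import genes, 6 of 20 fusion and fission genes and 10 of 19 mitophagy genes. They covered 14 of 23 listed biogenesis genes and 11 of 26 genes of other transport. The counts and medians below describe only the genes covered. Of 17 tested genes of import and inner membrane organization, 8 were called lower, 14 passed as lower, and the median log2 fold change was -0.87. They include the matrix chaperonin Hspd1 (-1.69), the import peptidases Mipep (-1.84) and Immp2l (-3.67), the import motor subunit Dnajc19 (-1.44) and the cristae organizer Immt (-1.12). Immp2l was scarce, at 3.22 ± 0.376 CPM in controls and 0.271 ± 0.350 CPM after cisplatin, near the level of 3 counts. Of 6 tested fusion and fission genes, 1 was called lower, Mtfp1 (-1.97), and 1 higher, Mtfr2 (3.13), with a median of -0.58. At the adjusted p, 1 of the 6 passed as higher and 3 as lower. Mtfr2 was scarce in controls, at 1.19 ± 0.439 CPM against 10.4 ± 6.44 CPM after cisplatin. Of 10 mitophagy genes 2 were called lower, Vdac1 (-1.32) and Gabarapl1 (-1.67), and 1 higher and 4 lower passed the adjusted p, with a median of -0.32. Of 14 genes of biogenesis and mitochondrial DNA maintenance, 3 were called lower, Esrrg (-2.27), Sirt3 (-1.88) and Rxra (-1.25). Called higher was 1, Pprc1 (1.06), which encodes a coactivator related to PGC-1alpha. At the adjusted p, 2 of the 14 passed as higher and 6 as lower, with a median of -0.61. Of 11 genes of other transport across mitochondrial membranes, 3 were called lower, Sfxn5 (-2.37), Cpt1a (-1.12) and Micu2 (-1.01). Called higher was 1, Mcub (2.03), which encodes an inhibitory subunit of the calcium uniporter. At the adjusted p, 3 of the 11 passed as higher and 6 as lower, with a median of -0.92. Mcub was low in both groups, at 0.901 ± 0.379 CPM in controls and 3.71 ± 0.998 CPM after cisplatin. The median over all genes tested was 0.08. Of all genes tested, 15.7% were called lower and 19.2% higher, while 22.6% passed the adjusted p as lower and 26.4% as higher.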

How the data were processed

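Poly(A) RNA of 8 mouse kidneys was sequenced, 4 control and 4 cisplatin. The authors processed the reads with fastp and HISAT2 on GRCm38 and deposited raw counts per gene. The counting tool, its strand setting and the annotation are not given in the sources used here. Of 53715 rows, 17835 (33.2%) held 10 values for 8 named libraries. These rows and their 2 unnamed extra columns were not used. Totals of 10953338 to 16701599 counts therefore cover part of each library, and the floor of 3 counts covers counting error only. Counts were tested in R 4.3.3 with edgeR 4.0.16 (filterByExpr, TMM, quasi-likelihood test, all 8 libraries, Benjamini-Hochberg over 9141 genes). A gene was called when its adjusted p was under 0.05 and its log2 fold change at least 1 in size, the thresholds of the study. CPM in the text are TMM-normalized unless a floor is meant. Paralog pairs were compared by log2 ratios of counts with 0.5 added. Alternatives were DESeq2 1.42.0, other scalings and filters, testing against a null of 1 in log2, leaving out the most abundant genes, a replicate block, the library sets and each library left out. The procedure was tested on simulated data. No replicate pair agreed within sampling noise (chi-square per gene of at least 15.1 within groups). The p-values rest on the spread between libraries of a group, which includes the unexplained difference between library sets. Chi-square per gene was 15.1 to 33.1 among controls 1, 2 and 3 and 112 to 134 between these and control 5. It was 27.7 between cisplatin 4 and 6, 59.5 between cisplatin 1 and 3, and 202 to 231 across the sets. The main fit held no term for the set.

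The genes, lists and tests were chosen with earlier results of these data known. Genes named with values were every gene that is not an Slc25a, Tomm or Timm gene, up to 8 called Slc25a rises and 8 falls, up to 4 import genes in each direction at an adjusted p under 0.05 (with at least 1 CPM and no overlap in both cases), the 3 Slc25a genes with the smallest change, and both genes of each pair. Slc25a3, Slc25a12, Slc25a20, Slc25a30, Slc25a33, Slc25a45, Slc25a48, Slc25a54, Timm10, Timm44, Tomm20, Tomm40, Tomm6os and the list genes given by name were chosen after their values were seen. Of 35880 rows, 34901 had the same start, end and strand in GENCODE M21. Promoter windows are those of RefSeq for GRCm38.p6.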

Additional observations from a re-analysis of the deposited data

Results flagged for a closer look

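A sample far from the others of its group was looked for with Dixon's test in 52 groups of 4 libraries, where chance gives about 1 in 20. It was found in 8 control groups and in 0 cisplatin groups. Control 5 was the far library in 7 of them, and it is the only control of the second library set, so that library and set cannot be told apart in controls. It was high in Slc25a5 (2166 CPM, nearest control 1063), Slc25a39 (1245, nearest 859), Pink1 (662, nearest 349), Mfn2 (327, nearest 262), Ucp2 (265, nearest 179) and Timm9 (68.2, nearest 45.8). It was low in Slc25a32 (29.6, nearest 44.6). Without it, the calls of Pink1, Slc25a39 and Ucp2 were made again and Slc25a5 fell short of the fold threshold. The remaining case is Ucp1, at 5.84 CPM in control 1 against at most 0.157 CPM in the other controls.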

How the results depend on the processing

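The count of genes called higher was 3 and became 5 with DESeq2, with upper quartile scaling, with no filter and without cisplatin 1 and 3, and 7 with the total library size. The 3 rises were among them in every alternative run. The genes added were Slc25a33 and Ucp3 in the first 3 of these settings and Slc25a33 and Timm10 in the fourth. The count of genes called lower was 9 and became 3 with the total library size and 4 when tested against a log2 fold change of 1. The count at an adjusted p under 0.05 was 21 and became 7 in that test, 32 in the first library set alone and 30 with the library set as a covariate. Leaving out 1 library at a time gave 3 to 5 higher, 8 to 11 lower and 17 to 22 past the adjusted p, with 5 higher without control 5. The number of pairs past the adjusted p was 0 in every alternative run, an outcome that the smallest p of the test largely fixed in advance.

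Signs turned as follows, and the cause was not tested. The TMM factors were 0.785 to 0.853 in controls and 1.15 to 1.32 in cisplatin libraries, so values scaled by totals lie higher after cisplatin than values scaled by TMM. The sign of the genes listed next therefore depends on the scaling taken. With the total library size the values were 0.43 for Slc25a17, 0.28 for Slc25a3, 0.13 for Slc25a30, 0.36 for Slc25a32, 0.33 for Slc25a38, 0.016 for Slc25a4 and 0.033 for Slc25a40. They were 0.48 for Timm17a, 0.56 for Timm44, 0.23 for Tomm20, 0.19 for Tomm5 and 0.19 for the median of the 45 genes. Of these, Slc25a17, Timm17a and Timm44 then passed the adjusted p as higher. In all, 14 genes turned. In the first library set alone, Slc25a25 was -0.028 and Timm17b -0.23, and with the library set as a covariate Timm17b was -0.10. Without cisplatin 1 and 3, Slc25a3 was 0.029, Slc25a38 0.079, Timm17a 0.18 and Timm44 0.21. With 1 library left out, Timm17a ranged from -0.18 to 0.024, Timm17b from -0.072 to 0.21 and the log2 ratio of Ucp2 to Ucp3 from -0.72 to 0.10, and with 5 added to each count that ratio was 0.28. The replicate block rests on numbers 1 and 3, which occur in both groups but mark different mice (correlation of deviations 0.25 and 0.28). It gave 4 genes called higher and 8 lower and 26 past the adjusted p, with Slc25a17 at 0.026, Timm17b at -0.21 and ended the calls of Ppargc1a (-0.98) and Slc25a5 (-0.95) while adding those of Tomm6os (-1.47) and Ucp3 (3.30). Of 629 values of named genes, pair ratios and counts by direction under alternatives, 528 were rated as kept. For genes and ratios this meant the same direction and side of the threshold, and for counts a value near the main count.

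Genes with few counts, such as Ucp3, Slc25a43 and Slc25a54, are limited by depth, and Ucp1 and Slc25a54 were too low to test.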
